A study of Mus musculus with 6 samples.

Results

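The solute carrier genes are those whose symbol begins with Slc and a family number. They were taken by that symbol from the platform's probe table, without Slc2a1, Slc2a3 and Slc4a1. Of 13146 genes with a single symbol on the array, 250 met this rule. Each was read from 1 probe set, whichever averaged highest across the 6 arrays. A gene was tested if that probe set reached the 40th percentile of its array on 3 or more arrays. This left 168 solute carrier genes among 9715 genes tested, and 82 were too dim.

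RNA came from Lin-/Sca1-/cKit+ cells sorted from MF1 mice aged 12 to 16 weeks, with 1 Affymetrix array per sample. The 3 leukemia samples are spleen cells of numbered mice in which AE9a, a truncated AML1-ETO fusion, drove the disease. Those mice were lethally irradiated wild-type animals given progenitors transduced with AE9a, so host cells that survived irradiation may also be present. The 3 wild-type samples are bone marrow cells of mice with no stated treatment. Leukemia, transplantation with irradiation, and spleen rather than marrow cannot be told apart as sources of a difference. The wild-type labels speak of mice in the plural, so these samples may be pools, and all p-values measure only the spread between samples. Kit, the receptor used in the sort, was measured at 9.76, 9.80 and 9.34 log2 in leukemia, against 10.42, 10.42 and 10.35 log2 in wild-type.

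Solute carriers are membrane proteins that pass nutrients, metabolites and ions across the cell surface or across the membranes of organelles. Some let a solute run down its gradient, while others couple it to sodium, protons or an exchanged solute, and the families are numbered by sequence. Dividing blood cells draw on them for essential amino acids, for the exchange of nucleotides between mitochondria and cytosol, for the sugar donors of the Golgi and for the iron and zinc of heme and metal enzymes.

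Wild-type arrays correlated more tightly (Pearson's r over all probe sets 0.992 to 0.994) than leukemia arrays (0.969 to 0.978). The median SD per tested solute carrier gene was 0.254 log2 in leukemia, against 0.134 in wild-type. Leukemia replicate 1 lay farthest from the leukemia mean for 83 of the 168 genes. It was the only leukemia array whose recorded hybridization date was that of the wild-type arrays. A probe set for 18S ribosomal RNA was at 12.35, 11.25 and 11.14 log2 in leukemia, against 9.41, 8.18 and 7.77 in wild-type, and the Gapdh 3' minus 5' difference was 0.23 higher in leukemia. Their part in the results was not tested. Summed markers of granulocytes reached 211 to 320 intensity units in leukemia, against 25600 to 32200 in wild-type. Only 4 of them were tested, Mpo, Elane, Ctsg and Prtn3, and all 4 were lower. Another 7, S100a8, S100a9, Camp, Ngp, Lcn2, Mmp9 and Itgam, were too dim to be tested. Those of monocytes and macrophages reached 360 to 515 in leukemia, against 5940 to 9790 in wild-type. Mast cell and basophil markers reached 13400 to 25000 in leukemia, against 4460 to 4980 in wild-type, with 5 of 7 tested markers higher and Mcpt8 lower. Fewer cells of a type and less RNA per cell cannot be told apart in such samples.

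Transporter genes changed in both directions, with more lower than higher in the leukemia cells. Carriers of zinc, of amino acids and of riboflavin held the largest rises, and mitochondrial nucleotide carriers, a choline carrier and the iron exporter ferroportin the largest falls. Of these, Slc30a2, Slc6a20a, Slc52a3, Slc25a24 and Slc44a1 passed the filter only through the group where they were high. Of the 168 tested solute carrier genes 82 changed (limma, adjusted p under 0.05 over all genes), where 42.1% of all tested genes did. There were 26 higher in leukemia, beside 16.9% of all tested genes, and 56 lower, beside 25.2% of all. At least 2-fold changes numbered 16 higher and 28 lower, 44 together, beside 19% of all genes. The median change was -0.13 log2 for the solute carrier genes and -0.09 for all genes tested. The share of solute carrier genes that changed (48.8%) was near that of all genes, and nothing particular to these genes is read from it. Of 24 tested ABC transporter genes, another class of membrane transporter, 4 were higher and 8 lower.

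For each of the 82 changed genes, and for 108 of the 168 tested, leukemia and wild-type values did not overlap, beside 59.2% of all genes. Of the tested genes 15 reached the minimum on exactly 3 arrays. Of these, 5 passed the filter only through the leukemia arrays, of which 4 were called higher, and 10 only through the wild-type arrays, all called lower. The 4 were Slc6a20a, Slc30a2, Slc52a3 and Slc18b1. The 10 were Slc44a1, Slc25a24, Slc25a13, Slc12a2, Slc9a9, Slc41a1, Slc30a4, Slc39a14, Slc22a15 and Slc16a4. For these called genes, all values of the dimmer group lay below the filter's percentile, so the sizes of their changes depend on background. The filter let them in only through the group where they were high, so the direction of these calls is no separate support. Slc25a47, the gene of those 5 that was not called, lay just inside the filter at 5.48, 5.62 and 5.53 log2 in leukemia, against 5.45, 5.32 and 5.36 in wild-type. Slc9a7, just outside with 2 arrays at the percentile, was at 3.00, 3.00 and 3.38 log2 in leukemia, against 5.47, 6.33 and 5.86 in wild-type. A further probe set was tested for 27 changed genes, and for 20 of them it changed the same way and for 0 the opposite way. The count of lower genes was 35 when wild-type replicate 3 was left out. In that fit 27.2% of all tested genes changed in either direction. Of the 82 calls 55 held without any 1 array left out (21 higher and 34 lower).

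**Figure D1:**
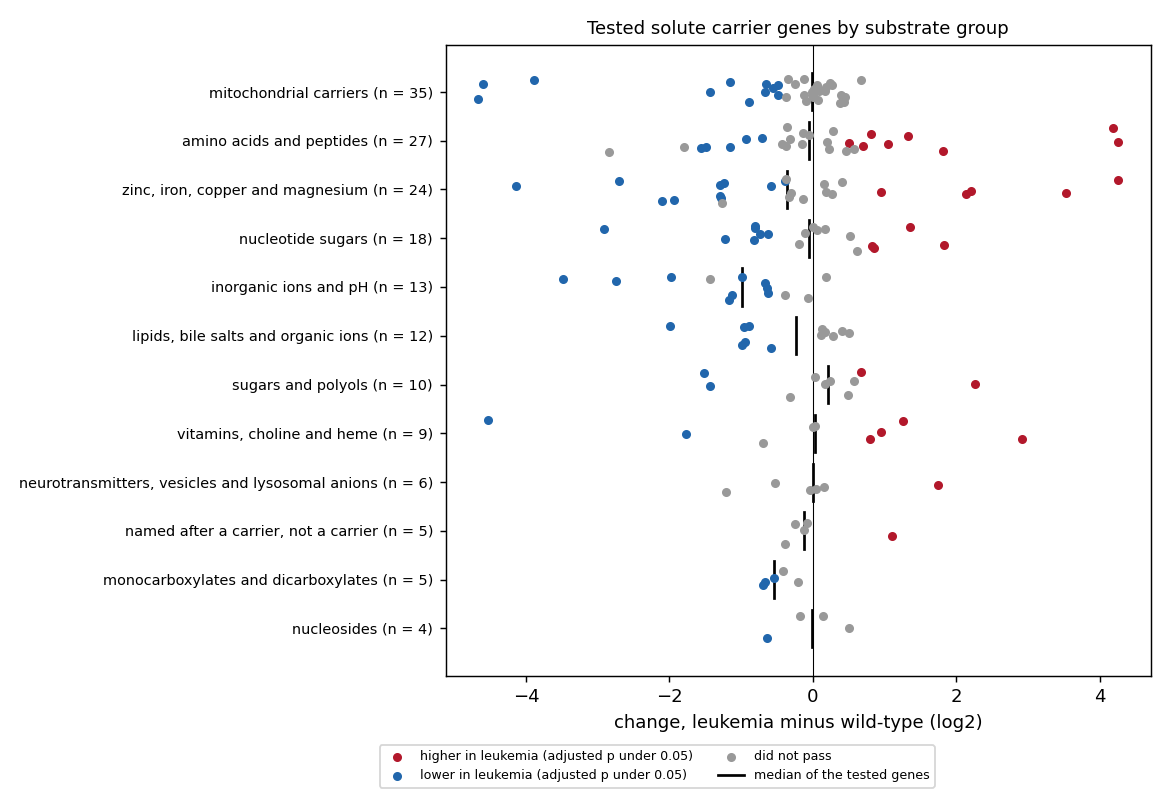
Change of each of the 168 tested solute carrier genes (leukemia minus wild-type, log2, x axis) in 12 substrate groups, each point 1 gene and each black line the group's median. The points of the carriers of inorganic ions lie mostly to the left, with a median of -0.98, while those of the mitochondrial carriers centre on 0 with 3 genes far to the left.

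**Figure D2:**
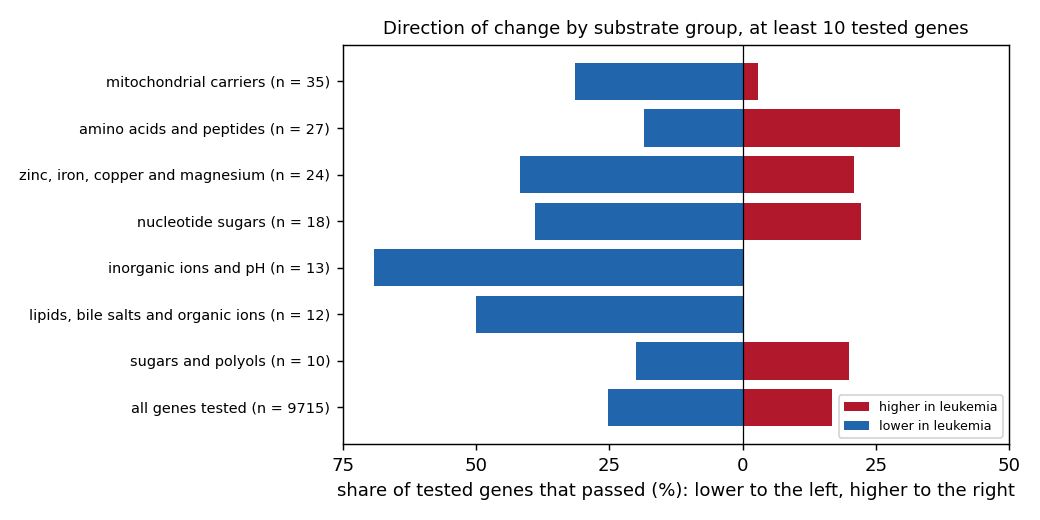
Share of tested genes that were lower (left) or higher (right) in leukemia, in percent, for substrate groups with at least 10 tested genes and for all 9715 genes tested. No carrier of inorganic ions or of lipids and organic ions was called higher, and 9 of 13 and 6 of 12 were called lower, beside 25.2% of all genes.

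The carriers of amino acids and peptides held more rises than falls. Of 27 tested members 8 were higher and 5 lower, beside 16.9% and 25.2% of all tested genes. The share that changed, 48.1%, was near the 42.1% of all tested genes. The median was -0.05, and 16 further members were too dim. Slc3a2 encodes the CD98 heavy chain, a glycoprotein that joins a light chain by a disulfide bond and carries it to the cell surface. It was at 11.83, 11.63 and 11.63 log2 in leukemia, against 10.36, 10.42 and 10.35 in wild-type. The 2.50-fold rise was far above the spread on either side (change 1.32 ± 0.08 SE, limma adjusted p = 3.14e-05). Slc7a8 encodes LAT2, a CD98 light chain that exchanges neutral amino acids. It was at 10.54, 10.26 and 9.89 log2 in leukemia, against 6.02, 6.14 and 5.97 in wild-type. That is an 18.2-fold rise (change 4.19 ± 0.18 SE, limma adjusted p = 1.03e-05). Slc7a5 encodes LAT1, the light chain that takes up leucine and other large neutral amino acids in dividing cells. It was at 10.04, 10.10 and 9.89 log2 in leukemia, against 9.18, 9.28 and 9.48 in wild-type, a rise of 0.70 (limma adjusted p = 0.00313). Both light chains and the heavy chain were thus higher on each leukemia array than on any wild-type array. The CD98 light chains Slc7a6 (change -0.38, adjusted p = 0.571) and Slc7a7 (change -0.32, adjusted p = 0.555) did not pass. Slc7a6 ran from -0.91 to 0.20 with 1 array left out and was at -1.53 on leukemia replicate 1 alone. Slc7a7 was lower without leukemia replicate 2 (-0.79, limma adjusted p = 0.0291). Slc7a11, the light chain that imports cystine, was too dim on all arrays.

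The stretches before the annotated starts of the heavy chain and of the light chain with the larger rise are shown because these partners were higher together. They are the 250 bases upstream of the start in RefSeq, build GRCm38.p6. The amino acid response element, which binds ATF4 when amino acids run short, was searched as TGATGNAAN on both strands. These letters are in neither window, and 3.89% of 27025 genes with a window hold them, as do 3 of 131 tested solute carrier genes with one. No capitals are marked.
Slc3a2 (chr19:8713898-8714147, minus strand): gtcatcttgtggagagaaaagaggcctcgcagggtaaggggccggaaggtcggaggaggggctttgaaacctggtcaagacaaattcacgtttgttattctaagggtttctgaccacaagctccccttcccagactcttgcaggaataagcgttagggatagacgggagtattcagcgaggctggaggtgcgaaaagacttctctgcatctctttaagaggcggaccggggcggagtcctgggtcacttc
Slc7a8 (chr14:54781887-54782136, minus strand): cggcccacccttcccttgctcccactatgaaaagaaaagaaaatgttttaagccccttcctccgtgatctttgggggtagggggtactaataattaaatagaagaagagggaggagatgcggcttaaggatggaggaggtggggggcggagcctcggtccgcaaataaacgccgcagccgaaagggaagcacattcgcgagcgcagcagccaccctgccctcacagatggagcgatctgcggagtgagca

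Slc6a20a, a sodium-coupled carrier of proline and other imino acids, had the largest rise of all solute carrier genes. It was at 7.58, 8.08 and 9.22 log2 in leukemia, against 4.01, 3.83 and 4.26 in wild-type. The rise of 4.26 ± 0.40 SE (limma adjusted p = 2.71e-04) ran from values below the 40th percentile on every wild-type array, and was 3.35 with 16 added before the log. Slc6a9, the glycine carrier GlyT1 that supplies erythroid cells for heme synthesis, was at 6.90, 7.63 and 7.95 log2 in leukemia, against 5.91, 5.54 and 5.61 in wild-type (change 1.81, limma adjusted p = 0.00254). Taking leukemia replicate 1 alone, its change was 1.22. The lysosomal carriers went both ways. Slc66a1, which exports cationic amino acids from lysosomes, rose by 0.81. Slc38a9, the lysosomal arginine sensor of the mTORC1 pathway, rose by 0.50 (limma adjusted p = 0.0384), and 5 of its 6 further tested probe sets rose too. That call was lost when any array but leukemia replicate 1 was left out (limma adjusted p 0.059 to 0.131). Slc36a1, the proton-coupled amino acid carrier of lysosomes, was at 6.22, 6.14 and 6.49 log2 in leukemia, against 7.68, 8.02 and 7.83 in wild-type (fell by 1.56, limma adjusted p = 4.60e-04). Slc15a4, a lysosomal peptide and histidine carrier of immune cells, fell by 0.93. Slc7a4, a relative of the cationic amino acid carriers, fell by 1.49 and Slc38a10 fell by 1.15. Those 4 falls held without any 1 array. Further probe sets of Slc38a10 gave -1.28 and -0.53, both called lower, and -0.35, 0.07 and 0.14 without passing.

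The glutamine and arginine carriers Slc38a1, Slc1a5, Slc38a2 and Slc7a1 did not pass. Slc38a1, the glutamine carrier SNAT1, was at 7.86, 9.31 and 3.74 log2 in leukemia, against 9.66, 10.08 and 9.68 in wild-type. Every leukemia value lay below the wild-type values, but they spread over more than 5 log2 units (SD 2.89, change -2.84, limma adjusted p = 0.114). Without leukemia replicate 2 its change was -4.00 (limma adjusted p = 0.0300), and without leukemia replicate 3 it was -1.22. Slc36a4, another proton-coupled carrier, had a similar spread (5.79, 8.09 and 3.58 log2 in leukemia, against 7.33, 7.77 and 7.74 in wild-type), with leukemia replicate 3 lowest in both genes. It was lower without leukemia replicate 2 (-2.93, limma adjusted p = 0.0123). Slc1a5 (change -0.36 ± 0.19 SE, adjusted p = 0.169) and Slc38a2 (change -0.14 ± 0.12 SE, adjusted p = 0.379), further glutamine carriers, did not pass. Slc1a5 was lower without leukemia replicate 2 (-0.56, limma adjusted p = 0.0257). On leukemia replicate 1 alone the changes of Slc1a5 and Slc38a2 were -0.69 and -0.38. Slc7a1, the arginine carrier CAT1 (change 0.23, adjusted p = 0.496), and Slc43a1, the leucine carrier LAT3 (change 0.19, adjusted p = 0.696), did not pass either. The last 2 were higher without leukemia replicate 1 (0.53, limma adjusted p = 0.0144, and 0.63, limma adjusted p = 0.0195). On that array alone the change of Slc43a1 was -0.69.

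**Figure D3:**
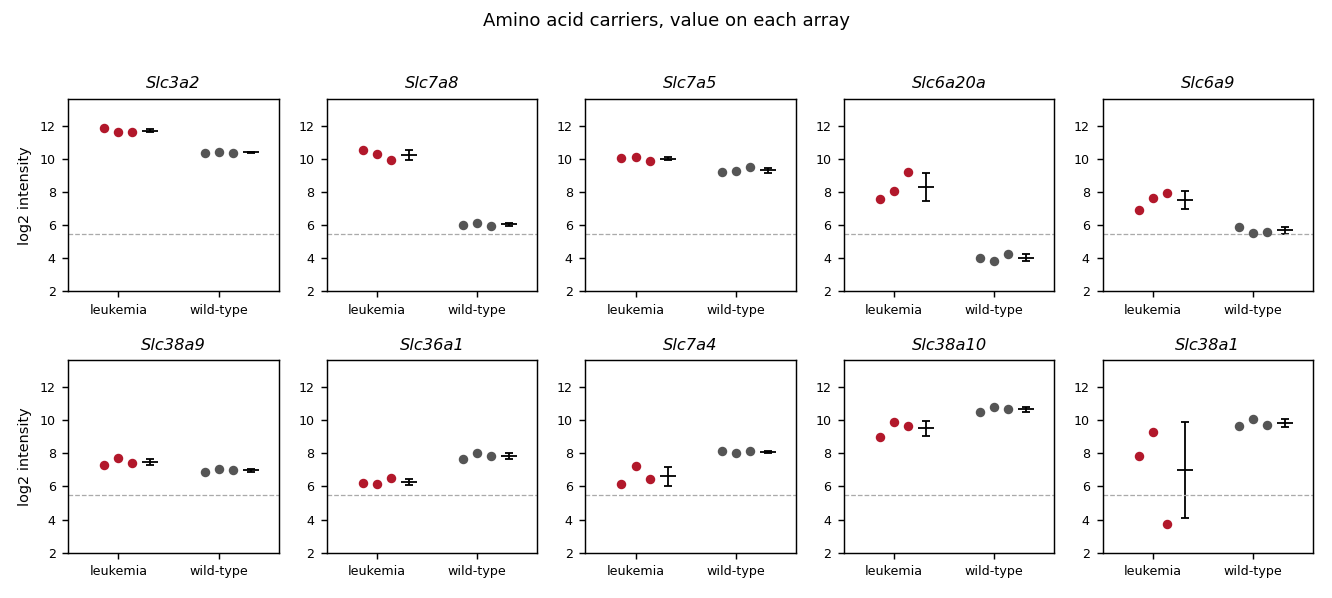
Log2 intensity of 10 amino acid carriers on each array, leukemia left and wild-type right, with mean and SD beside the points (n = 3 each). The dashed line is the median over arrays of the 40th percentile of all probe sets. Slc7a8 and Slc6a20a show the widest gaps, and Slc38a1 spreads from 3.74 to 9.31 among the leukemia arrays.

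Among the mitochondrial carriers most genes stayed near the wild-type level and 3 were far lower. These SLC25 proteins sit in the inner mitochondrial membrane and exchange nucleotides, amino acids, phosphate and cofactors with the cytosol. Of 35 tested members 1 was higher and 11 were lower, beside 16.9% and 25.2% of all tested genes, with a median of -0.01. Slc25a4 encodes ANT1, an ADP/ATP carrier that is the main form in heart and muscle. It was at 6.47, 6.04 and 5.74 log2 in leukemia, against 10.74, 10.71 and 10.82 in wild-type. This 25.5-fold fall was the largest among the solute carrier genes (change -4.67 ± 0.19 SE, limma adjusted p = 9.55e-06), and its further probe sets fell by 4.62 and 4.63. Slc25a5 encodes ANT2, the form of dividing cells. It was at 12.97, 12.91 and 12.83 log2 in leukemia, against 12.85, 12.90 and 12.93 in wild-type. The ranges overlapped (change 0.00 ± 0.05 SE, limma adjusted p = 0.944), and all 7 further tested probe sets lay between -0.08 and 0.22 without passing.

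Slc25a24, a calcium-regulated carrier that swaps ATP-magnesium for phosphate, was at 3.41, 3.09 and 2.63 log2 in leukemia, against 7.51, 7.62 and 7.81 in wild-type (change -4.60 ± 0.23 SE, limma adjusted p = 1.69e-05). Its relative Slc25a23 fell by 0.67. Another, Slc25a25, did not pass (change -0.37, limma adjusted p = 0.0671), and was at -0.49 on leukemia replicate 1 alone. Slc25a13 encodes citrin, an aspartate-glutamate carrier of the malate-aspartate shuttle. It was at 4.05, 4.15 and 3.80 log2 in leukemia, against 7.80, 8.13 and 7.72 in wild-type (change -3.88 ± 0.18 SE, limma adjusted p = 1.33e-05). Slc25a12, the other aspartate-glutamate carrier, was at 8.82, 8.57 and 8.59 log2 in leukemia, against 8.43, 8.70 and 8.81 in wild-type (change 0.01, limma adjusted p = 0.958). Slc25a24 and Slc25a13 lay below the 40th percentile on every leukemia array, so the sizes of their falls depend on the handling of background. With 16 added before the log they were -3.15 and -2.98.

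Smaller falls touched carriers of ornithine, pyrimidine nucleotides, glutamate and citrate. The ornithine carrier Slc25a15 fell by 1.43, the pyrimidine nucleotide carrier Slc25a33 by 1.15, the glutamate carrier Slc25a22 by 0.89 and the citrate carrier Slc25a1 by 0.66. Slc25a26, which imports S-adenosylmethionine, fell by 0.49 and Slc25a51, which imports NAD, fell by 0.48. Slc25a20, the carnitine-acylcarnitine carrier of fatty acid oxidation, was the only member called higher (change 0.42, limma adjusted p = 0.0222), and its further probe set gave -0.14. For 4 mitochondrial carriers that did not pass, Slc25a30, Slc25a32, Slc25a36 and Slc25a46, a further probe set was called higher (0.39 to 0.85). The call of Slc25a20 was lost without leukemia replicate 2 or any 1 wild-type array (limma adjusted p 0.0609 to 0.0794). The calls of Slc25a22 and Slc25a26 were lost without any 1 wild-type array, that of Slc25a26 also without leukemia replicate 3 (limma adjusted p = 0.0521), those of Slc25a23 and Slc25a45 without wild-type replicates 2 or 3 and that of Slc25a1 without wild-type replicate 3. Changed mitochondrial carriers numbered 7 if wild-type replicate 2 was left out and 6 if wild-type replicate 3 was. In those fits 28.2% and 27.2% of all tested genes changed.

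The mitochondrial carriers that serve heme synthesis did not pass. Slc25a37, mitoferrin 1, brings iron into mitochondria of erythroid cells. It was at 8.42, 9.63 and 10.03 log2 in leukemia, against 9.12, 9.13 and 9.04 in wild-type (change 0.26, limma adjusted p = 0.601). Leukemia replicate 1 lay below all wild-type arrays and the other leukemia arrays above them. Without that array the change was 0.73 (limma adjusted p = 0.00530). On that array alone it was -0.68. The summed erythroid markers were lowest on the same leukemia array (8310, against 11700 and 13400 intensity units on leukemia replicates 2 and 3), with 7070 to 11100 in wild-type. Their part in the result was not tested. Slc25a38, a glycine carrier for heme synthesis, had a change of 0.08 (limma adjusted p = 0.790). Slc25a39, the glutathione carrier (change -0.13, limma adjusted p = 0.0737), and Slc25a3, the phosphate carrier (change -0.12, limma adjusted p = 0.0929), did not pass either. Of the further probe sets of Slc25a39, 1 fell by 0.56 (limma adjusted p = 0.0214), while the others gave 0.01 and 0.00. In 7 more solute carrier genes leukemia replicate 1 lay below and the other leukemia arrays above every wild-type array, among them Slc11a2, Slc43a1, Slc7a1 and Slc19a1.

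**Figure D4:**
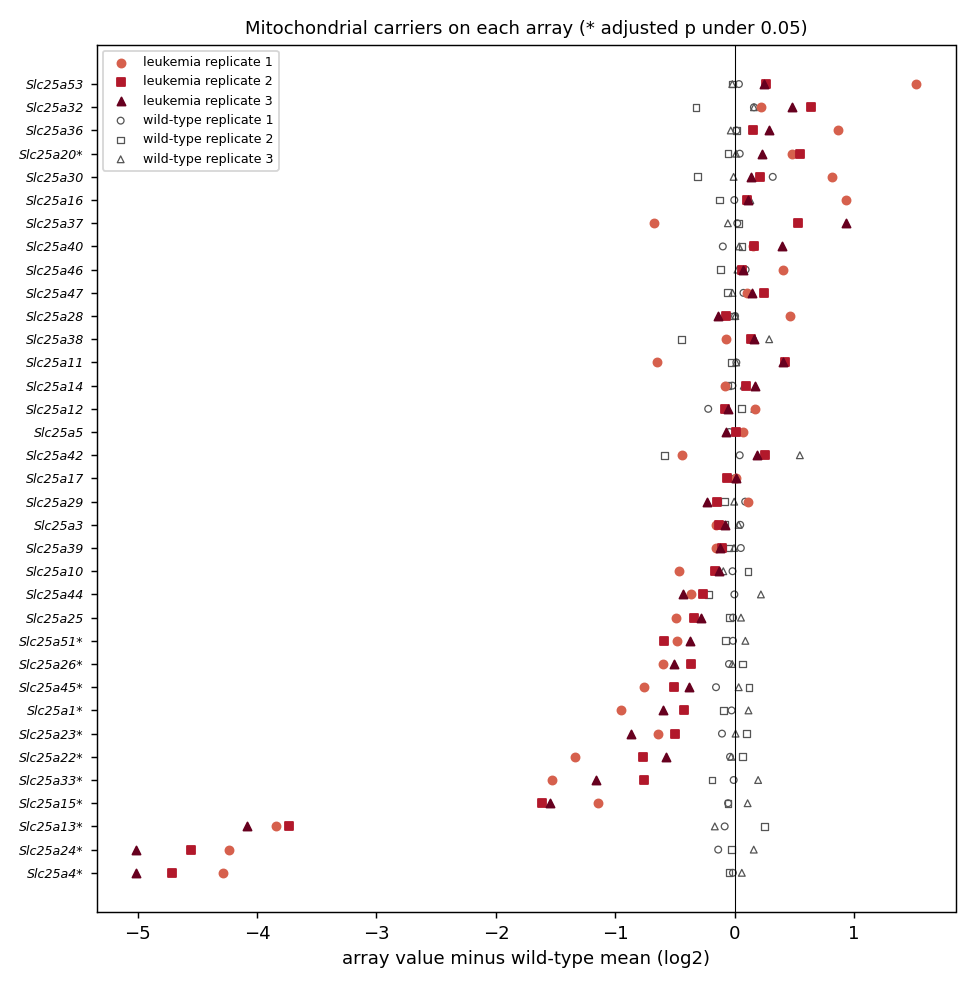
Value of each of the 35 tested mitochondrial carriers on each array minus its wild-type mean (log2, x axis), filled symbols for leukemia and open symbols for wild-type arrays, sorted by change, with an asterisk for an adjusted p under 0.05. Slc25a4, Slc25a24 and Slc25a13 lie 3.73 to 5.02 below the wild-type mean on all leukemia arrays, and leukemia replicate 1 departs from the other leukemia arrays in genes such as Slc25a37 and Slc25a53.

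The metal carriers changed in both directions and by large amounts. Of 24 tested members 5 were higher and 10 lower, beside 16.9% and 25.2% of all tested genes. At least 2-fold changes numbered 12, beside 19% of all genes, and the group's median was -0.35. Slc30a2 encodes ZnT2, which loads zinc into vesicles. It was at 8.63, 9.21 and 7.96 log2 in leukemia, against 4.40, 4.25 and 4.40 in wild-type (change 4.25 ± 0.31 SE, limma adjusted p = 8.41e-05). All wild-type values lay below the 40th percentile, and the change was 3.48 with 16 added before the log. Slc39a4 encodes ZIP4, a zinc importer of the cell surface best known from the gut. It was at 9.34, 9.52 and 9.16 log2 in leukemia, against 5.52, 5.85 and 6.05 in wild-type, an 11.6-fold rise (limma adjusted p = 1.93e-05). Slc39a8, ZIP8, which imports zinc, manganese and iron, was at 9.66, 9.82 and 9.71 log2 in leukemia, against 7.51, 7.33 and 7.72 in wild-type (change 2.21, limma adjusted p = 4.09e-05). Its further probe set rose by 3.22. Slc39a1, the widespread zinc importer ZIP1, rose by 0.94.

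Other ZIP family members were lower. Slc39a14, ZIP14, an importer of zinc and iron, was at 4.61, 4.61 and 4.79 log2 in leukemia, against 6.44, 6.72 and 6.66 in wild-type (fell by 1.94, limma adjusted p = 1.39e-04). Slc39a7, which releases zinc from the endoplasmic reticulum, fell by 1.29, Slc39a11 by 1.29 and Slc39a6 by 1.24. The vesicular zinc carrier Slc30a4 fell by 2.10 and the secretory pathway carrier Slc30a5 by 0.39. The last call, and that of Slc39a3 (fell by 0.58), was lost without any 1 wild-type array (limma adjusted p 0.0550 to 0.108), and that of Slc30a5 also without leukemia replicate 3 (0.0580). The further probe set of Slc39a3 gave 0.37 (limma adjusted p = 0.101), and its call was lost when probe sets were averaged. Slc39a10 did not pass (6.35, 8.62 and 8.59 log2 in leukemia, against 8.98, 9.23 and 9.13 in wild-type), and leukemia replicate 1 was lowest. Without that array it was lower (-0.51, limma adjusted p = 0.00880), and on that array alone the change was -2.77.

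The magnesium carriers moved apart. Slc41a3 was at 9.85, 10.11 and 9.85 log2 in leukemia, against 7.89, 7.55 and 7.97 in wild-type (change 2.13, limma adjusted p = 7.41e-05), and both further probe sets rose. Slc41a1 was at 3.85, 3.51 and 3.45 log2 in leukemia, against 6.33, 6.16 and 6.46 in wild-type (change -2.71, limma adjusted p = 5.81e-05). Every leukemia value of Slc41a1 lay below the filter's percentile, so the size of its fall depends on background.

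Slc40a1 encodes ferroportin, the only known cellular iron exporter, which is abundant in macrophages that recycle red cells. It was at 4.65, 3.98 and 5.45 log2 in leukemia, against 8.94, 8.45 and 9.10 in wild-type. This 17.6-fold fall (change -4.14 ± 0.38 SE, limma adjusted p = 2.29e-04) was seen with its further probe set too (fell by 3.35). Leukemia replicates 1 and 2 lay below the filter's percentile, and replicate 3 was just above it (5.42). The further probe set lay below it on every leukemia array (4.19, 3.97 and 4.91 log2). The sizes of both falls thus depend on background. Of 10 tested monocyte and macrophage markers 8 were lower in leukemia and 0 higher, and their part in the fall was not tested. Slc11a2, DMT1, which moves iron out of endosomes after transferrin uptake, did not pass (change 0.41, limma adjusted p = 0.423). It was at 7.33, 8.53 and 8.75 log2 in leukemia, against 8.13, 7.43 and 7.83 in wild-type, and its change without leukemia replicate 1 was 0.84 (limma adjusted p = 0.0201). The copper importer Slc31a1 did not pass (change 0.15, limma adjusted p = 0.441), while Slc31a2, another copper carrier, fell by 1.27. Slc11a1, a metal carrier of phagosomes, was too dim on all arrays.

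**Figure D5:**
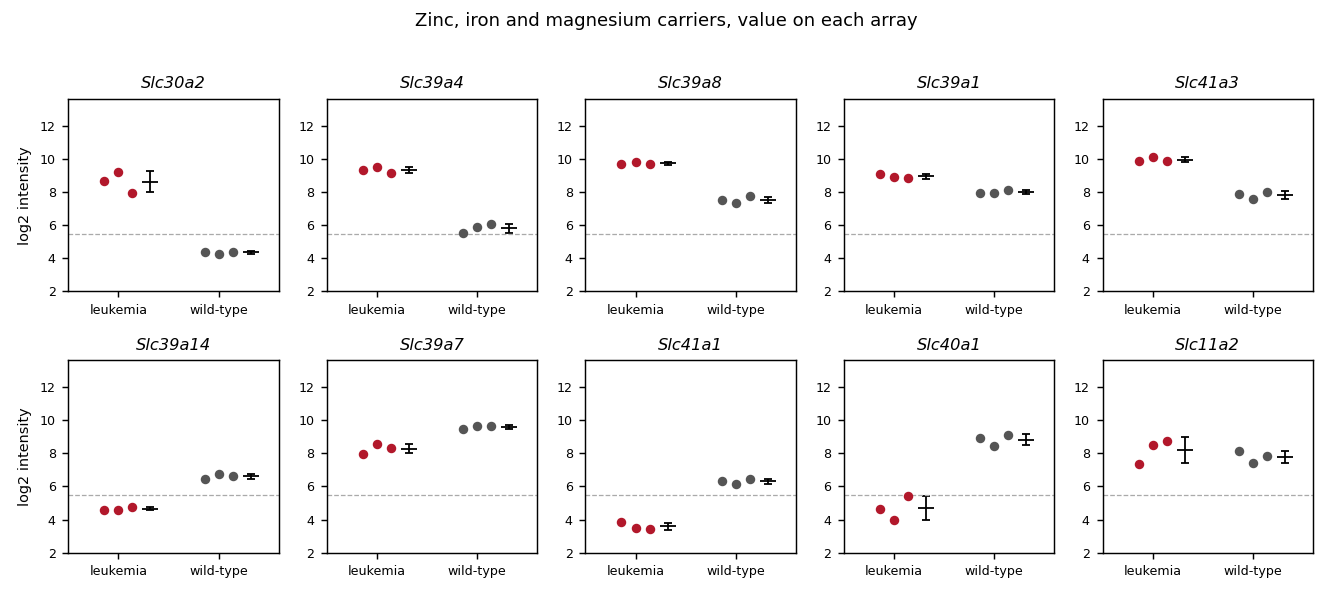
Log2 intensity of 10 carriers of zinc, iron and magnesium on each array, leukemia left and wild-type right, with mean and SD beside the points (n = 3 each) and the median 40th percentile as a dashed line. The upper row holds the 5 members called higher, and the lower row 4 called lower and Slc11a2, whose groups overlap.

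Stretches before annotated starts of 2 zinc carriers that rose are shown because cells adjust several zinc carriers through the metal response element, which binds the zinc sensor MTF1. Whether these stretches act as promoters in these cells was not tested. Its core was searched as TGCACNC or TGCGCNC on both strands in the 250 bases before each annotated start. The core was present for 3 of the 4 metal carriers that were higher and have a window, 6 of 7 that were lower and 1 of 8 that did not pass. Across all genes with a window it was present for 23.8%, and across the tested solute carrier genes for 46 of 131. This motif and these sets were chosen after the values were seen, and the counts are a description. Capitals mark the core. In Slc30a2 the matches begin 214 and 200 bases before the start, and in the second annotated window of Slc39a8 the match begins 19 bases before it. The first window of Slc39a8 does not hold these letters, and no window of Slc39a4 was in the table.
Slc30a2 (chr4:134343216-134343465, plus strand): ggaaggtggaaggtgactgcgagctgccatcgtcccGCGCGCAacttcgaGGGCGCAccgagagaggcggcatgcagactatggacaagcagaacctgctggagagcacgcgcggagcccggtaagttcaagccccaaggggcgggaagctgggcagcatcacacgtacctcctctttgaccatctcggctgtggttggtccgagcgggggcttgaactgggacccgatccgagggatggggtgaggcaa
Slc39a8 (chr3:135825407-135825656, plus strand): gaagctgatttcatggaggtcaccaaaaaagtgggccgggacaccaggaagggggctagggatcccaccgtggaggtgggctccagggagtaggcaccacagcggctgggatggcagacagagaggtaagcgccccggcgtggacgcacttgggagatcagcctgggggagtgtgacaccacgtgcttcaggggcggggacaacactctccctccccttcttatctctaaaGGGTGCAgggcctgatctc

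The carriers of inorganic ions were lower where they changed. Of 13 tested members 9 were lower and 0 higher, beside 25.2% and 16.9% of all tested genes. Slc12a2 encodes NKCC1, the sodium, potassium and chloride cotransporter that restores cell volume. It was at 4.74, 5.02 and 5.0 log2 in leukemia, against 8.52, 8.42 and 8.28 in wild-type, an 11.2-fold fall (limma adjusted p = 1.07e-05). Slc9a9, a sodium-proton exchanger of endosomes, was at 3.90, 4.06 and 3.43 log2 in leukemia, against 6.19, 6.70 and 6.75 in wild-type (fell by 2.75, limma adjusted p = 1.92e-04). Slc12a2 and Slc9a9 lay below the filter's percentile on every leukemia array, so the sizes of their falls depend on background. Slc24a3, a calcium exchanger of the plasma membrane, fell by 1.97 and Slc8b1, the sodium-calcium exchanger of mitochondria, by 1.17. The phosphate importer Slc20a2 fell by 0.98, but its further probe set gave -0.05 (limma adjusted p = 0.829). The related Slc20a1 did not pass (change -0.07, limma adjusted p = 0.742). Slc12a9 fell by 1.13. The bicarbonate exchanger Slc4a2 fell by 0.62, with Slc9a8 and Slc26a6 at -0.66 and -0.64, and these 3 calls did not hold without any 1 wild-type array (limma adjusted p 0.0525 to 0.134), nor without at least 1 of leukemia replicates 2 and 3 (0.0501 to 0.0667). The group's median was -0.98, -0.62 when all probe sets of a gene were averaged, and -0.11 when the dim members were included.

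The carriers of lipids, bile salts and organic ions also held falls and no called rise, with 6 of 12 lower, beside 25.2% of all tested genes. Slc14a1, the urea carrier that bears the Kidd antigen of human red cells, was at 8.37, 8.30 and 6.42 log2 in leukemia, against 9.90, 9.31 and 9.87 in wild-type (change -2.00, limma adjusted p = 0.0198). Leukemia replicate 3 was lowest, and without it the change was -1.36. The call was lost without wild-type replicate 1 (limma adjusted p = 0.0694) or 3 (0.0723), and the change on leukemia replicate 1 alone was -1.33. The fatty acid transport proteins Slc27a1 and Slc27a4 fell by 0.98 and 0.97, the second not without wild-type replicate 3 (limma adjusted p = 0.0517). Slc22a5, the plasma membrane carnitine carrier, did not pass (change 0.12, limma adjusted p = 0.398). Slc22a23 spread widely (5.08, 7.94 and 8.70 log2 in leukemia, against 7.47, 6.39 and 7.5 in wild-type), and was at -2.05 on leukemia replicate 1 alone. Without wild-type replicate 3 the count of lower members was 3, in a fit where 27.2% of all tested genes changed.

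Of the carriers of monocarboxylates 3 of 5 tested were lower, beside 25.2% of all tested genes. Slc16a1, MCT1, which carries lactate and pyruvate with protons, was at 9.79, 10.13 and 10.13 log2 in leukemia, against 10.73, 10.57 and 10.84 in wild-type (fell by 0.70, limma adjusted p = 0.00446). Slc16a4 fell by 0.66 but not without leukemia replicate 2 (limma adjusted p = 0.0723) or wild-type replicates 1 (0.0951) or 2 (0.103). Slc16a6 fell by 0.54 (limma adjusted p = 0.0441). Its call was lost without leukemia replicate 3 (limma adjusted p = 0.0777) or any 1 wild-type array (0.0826 to 0.138). Slc16a3, MCT4, the lactate exporter of glycolytic cells, was too dim to be tested and was at 4.86, 6.88 and 4.93 log2 in leukemia, against 3.90, 3.52 and 3.48 in wild-type.

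The nucleotide sugar group holds the tested genes of the SLC35 family. Carriers of nucleotide sugars bring activated sugars and sulfate donors into the Golgi and endoplasmic reticulum. Genes were placed here by family number, which does not show the substrate of each, Slc35g1 and Slc35e3 included. Of 18 tested members 4 were higher and 7 lower, beside 16.9% and 25.2% of all tested genes. Slc35c1, the GDP-fucose carrier needed for selectin ligands, was at 8.70, 9.15 and 8.89 log2 in leukemia, against 7.42, 7.46 and 7.80 in wild-type (change 1.35, limma adjusted p = 0.00100). Slc35a3, which carries UDP-N-acetylglucosamine, rose by 0.82, and its 3 further tested probe sets rose too. Slc35g1 was at 8.85, 9.32 and 9.55 log2 in leukemia, against 7.48, 7.24 and 7.49 in wild-type (change 1.83, limma adjusted p = 4.73e-04). Slc35e3 was at 5.16, 6.22 and 5.36 log2 in leukemia, against 8.34, 8.56 and 8.56 in wild-type (fell by 2.91, limma adjusted p = 3.05e-04). Slc35b4 fell by 1.23, and its further probe sets gave -1.79 and -2.01. The sulfate donor carriers went apart, with Slc35b3 higher (0.86) and Slc35b2 lower (-0.81). The calls of Slc35b2, Slc35b3 and Slc35b4 were each lost without any 1 wild-type array (limma adjusted p 0.0530 to 0.122). Changed members numbered 7, 7 and 6 when wild-type replicates 1, 2 and 3 were left out in turn. In those fits 29.3%, 28.2% and 27.2% of all tested genes changed. The CMP-sialic acid carrier Slc35a1 (change 0.16, limma adjusted p = 0.525) and the UDP-galactose carrier Slc35a2 (change -0.20, limma adjusted p = 0.377) did not pass. On leukemia replicate 1 alone they were at 0.57 and -0.48.

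Among the carriers of vitamins, choline and heme 4 of 9 tested were higher and 2 lower, beside 16.9% and 25.2% of all tested genes. Slc52a3, a riboflavin importer, was at 7.98, 7.57 and 7.82 log2 in leukemia, against 4.77, 5.07 and 4.78 in wild-type, a 7.55-fold rise (limma adjusted p = 3.81e-05). Its wild-type values all lay below the filter's percentile, so the size of the rise depends on background. Slc44a1, the plasma membrane and mitochondrial choline carrier, was at 3.87, 3.18 and 3.15 log2 in leukemia, against 8.05, 7.51 and 8.23 in wild-type (change -4.53 ± 0.28 SE, limma adjusted p = 4.03e-05). Every leukemia value of Slc44a1 lay below the filter's percentile, so the size of its fall depends on background. Its relative Slc44a2 was at 11.62, 11.24 and 11.06 log2 in leukemia, against 9.82, 10.26 and 10.08 in wild-type (change 1.25, limma adjusted p = 0.00134), and both further probe sets rose. Slc48a1, which moves heme out of lysosomes, rose by 0.95, while its further probe set gave 0.18 (adjusted p = 0.474). The thiamine carrier Slc19a2 rose by 0.79 but not without leukemia replicate 3 (limma adjusted p = 0.0581) or wild-type replicate 2 (0.0648). The ascorbate carrier Slc23a2 fell by 1.77 (limma adjusted p = 0.0408), with leukemia replicate 2 near wild-type (4.67, 6.63 and 4.33 log2 in leukemia, against 6.93, 7.04 and 6.99 in wild-type). Its call was lost without any 1 array except leukemia replicate 2, where the change was -2.49. The reduced folate carrier Slc19a1 did not pass (change 0.03, limma adjusted p = 0.906).

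Sugar and polyol carriers held 2 higher and 2 lower members among 10 tested, beside 16.9% and 25.2% of all tested genes. Slc2a9, a urate carrier of the GLUT family, was at 7.74, 8.14 and 7.76 log2 in leukemia, against 5.69, 5.39 and 5.76 in wild-type (change 2.26, limma adjusted p = 1.35e-04). Slc2a8, an intracellular hexose carrier, rose by 0.67 but not without wild-type replicates 1 (limma adjusted p = 0.0638) or 2 (0.0723). The glucose carriers Slc2a1 and Slc2a3, kept out by the rule, rose by 2.62 and 1.57. Slc45a4 was at 7.27, 7.29 and 7.83 log2 in leukemia, against 9.10, 8.71 and 9.13 in wild-type (fell by 1.51, limma adjusted p = 0.00132). The inositol carrier Slc5a3 fell by 1.43, and by 2.14 on leukemia replicate 1 alone.

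The remaining groups were small. Slc18b1, a vesicular polyamine carrier, was at 6.90, 6.63 and 7.51 log2 in leukemia, against 5.49, 4.99 and 5.32 in wild-type (change 1.75, limma adjusted p = 0.00216). Slc18a2, VMAT2, which loads serotonin and histamine into storage vesicles, was at 5.80, 7.94 and 6.32 log2 in leukemia, against 8.0, 7.70 and 7.98 in wild-type (change -1.20, limma adjusted p = 0.0978). Leukemia replicate 2 lay within the wild-type range, and without it the change was -1.83 (limma adjusted p = 0.00144). The nucleoside carriers held 1 fall among 4 tested, beside 25.2% of all tested genes. For Slc29a2, which did not pass (change -0.18), a further probe set fell by 1.02 (limma adjusted p = 0.00305). Slc29a3, the lysosomal member, fell by 0.64 (limma adjusted p = 0.0163). It did not pass without wild-type replicates 2 (limma adjusted p = 0.0685) or 3 (0.0625), and was at -0.51 on leukemia replicate 1 alone. Slc29a1, the main importer at the cell surface, did not pass (9.37, 10.22 and 10.55 log2 in leukemia, against 9.71, 9.32 and 9.62 in wild-type), and was at 0.83 without leukemia replicate 1 (limma adjusted p = 0.00581). Another 5 tested genes are named after a carrier without being one. Of these the scaffold gene Slc9a3r1 rose by 1.10, as did its 2 further probe sets, and Slc9a3r2, the related scaffold, did not pass (change -0.08, limma adjusted p = 0.733).

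Spread among the leukemia arrays set the limit for several carriers. The SD was at least 1 log2 unit in leukemia for 9 tested solute carrier genes and in wild-type for 0. Of the 9, Slc14a1 and Slc23a2, were called. The others were Slc38a1, Slc36a4, Slc7a6, Slc12a7, Slc18a2, Slc22a23 and Slc39a10. Of the 86 genes that did not pass, 25 were called in at least 1 of the fits that left out 1 array, and 7 had a further probe set that was called. Without leukemia replicate 1 the counts were 38 higher and 56 lower, in a fit where 48.5% of all tested genes changed.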

How the data were processed

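Expression in 3 leukemia and 3 wild-type samples was measured on Affymetrix Mouse430_2 arrays from 200 ng of total RNA each, per the labels. The deposited values are linear intensity values that the authors made with RMA, per the submitters' processing notes, whose version and settings are not given in the sources used here. They ran from 3.31 to 18900, with array medians of 71.6 to 79.9, and precision is limited by there being 6 arrays. The hybridization date (2 distinct entries) was read from the deposited array run records. Columns not mapped to a sample numbered 0.

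Log2 was taken with no pseudocount. Of 28821 probe sets, 23750 had 1 gene symbol in the platform annotation, 677 several, 4355 none and 39 were controls, and only those with 1 symbol were used. RefSeq (GRCm38.p6) held all 250 symbols, and 194 had a promoter window. The comparison was fitted by lmFit and eBayes of limma 3.58.1 under R 4.3.3 (trend on intensity, no covariate, 4 residual degrees of freedom, two-sided, Benjamini-Hochberg over the 9715 genes tested, threshold 0.05). Further probe sets were tested in the same way over all tested probe sets. A change on leukemia replicate 1 alone comes from the fit with the hybridization date as a block. That fit sets 1 leukemia array against the wild-type arrays and cannot measure this array's spread, so only the size is given. In the fit with array weights, this array had a weight of 0.191, against 0.831 to 2.82 for the others. Substrate groups follow family numbers, with exceptions by gene. The solute carrier rule, the groups and the lists were chosen with earlier results of these data known. Named genes were, per group, the 2 largest rises and falls among called genes without overlap, the 8 largest rises and falls over all groups, the 5 highest in mean and a panel of 30 carriers, and further genes were named after their values were seen. Of the panel, Slc46a1 and Slc15a3 were also too dim, and Slc6a4, Slc22a3 and Slc28a2 were not analysed here. The marker lists gave, higher and lower among tested genes, 5 and 0 of 9 for erythroid cells, 0 and 4 of 4 for granulocytes, 2 and 5 of 7 for megakaryocytes, 0 and 1 of 2 for B cells, 0 and 1 of 1 for T and NK cells and 0 and 3 of 3 for stroma and endothelium. On simulated data of 9715 genes, with 200 changed in this comparison, the fit recovered 5.97% of changes of 0.5, 49.3% of 1 and 93.9% of 2 log2 units. In the real data 4089 genes were called. The Benjamini-Hochberg cut-off depends on the share of changed genes, so these rates cannot be carried over to this comparison. Figures were drawn with matplotlib 3.10.9.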

Additional observations from a re-analysis of the deposited data

How the results depend on the processing

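The 17 alternatives covered the filter, the probe set rule, normalization, a pseudocount of 16, the variance model, array weights, both blocks and leaving out each array. Of the 82 calls 0 turned direction under any of them, where the gene was tested. The count of changed solute carrier genes ran from 58 to 94 with 1 array left out, that of higher genes from 21 to 38, and that of lower genes from 35 to 59 (35 without wild-type replicate 3). The share of all genes called ran from 27.2% to 48.5% in those fits. Members changed ran from 6 to 15 for mitochondrial carriers, from 6 to 11 for nucleotide sugar carriers and from 3 to 7 for lipid and organic ion carriers. Without the filter 14 inorganic ion carriers changed, among 34 tested, beside 34.4% of all genes. With the filter at the 60th percentile 2 lipid and organic ion carriers changed, among 5 tested, beside 42.6% of all genes. With the hybridization date as a block, where leukemia is replicate 1 alone, the median of all tested solute carrier genes was -0.41. Some genes had a change in that fit opposite in sign to their uncalled change in the comparison of all arrays. Among them were Slc19a1 (-0.37), Slc25a37 (-0.68), Slc43a1 (-0.69), Slc22a23 (-2.05), Slc25a11 (-0.65) and Slc6a13 (0.73). The cause was not tested. With the replicate block 76 solute carrier genes changed, beside 36.7% of all tested genes. The replicate numbers share only a number, since deviations of same-numbered arrays correlated at -0.07, 0.05 and 0.03. The depth of signal limits genes below the 40th percentile in 1 group, whose fold changes depend on background.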
